A study of Mus musculus with 6 samples.

Results

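Expression of 10 tight junction genes was followed in mouse mammary EpRas tumor cells with and without induced epithelial–mesenchymal transition (EMT). The genes were *Cldn1*, *Cldn3*, *Cldn4*, *Cldn7*, *Ocln*, *Marveld2*, *Marveld3*, *Lsr*, *F11r* and *Tjp1*. They were chosen by name as core parts of the junction, and each was read from its own probe set, so that all 10 of 10 were measured among 18820 genes with a probe set of their own. EpRas cells are a single cell line of BALB/c background, derived from the EpH4 mammary epithelial line. They carry a Ha-Ras oncogene at a high level in both groups, controls included. Control cells were left untreated for 14 days, and long-term EMT cells were kept in 2 ng/ml of TGF-β1 over the same 14 days. RNA from 3 wells per group was hybridized to 1 array each, so that p-values measure the spread between wells, and whether these were separate cultures over the 14 days is not given. With 3 arrays per group, precision is limited by their number. All values are log2 RMA values (normalized probe set intensities on a log2 scale), and a difference of 1 is a 2-fold difference. A gene "fell" or "rose" when limma gave an adjusted p under 0.05 over all 35556 probe sets and the fold was above 1.5. Olfactory receptor genes, which are used mainly in the nose, gave the background level of the array: 95% of their 1006 probe sets had a mean under 4.48.

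Tight junctions seal the space between neighboring epithelial cells and separate the apical from the basolateral membrane. Claudins are tetraspan proteins that form the strands of the junction and set which ions pass between cells. Occludin (*Ocln*), tricellulin (*Marveld2*) and *Marveld3* belong to the MARVEL family of tetraspan proteins. Tricellulin marks the points where 3 cells meet and is brought there by the lipolysis-stimulated lipoprotein receptor (*Lsr*, angulin-1). Junctional adhesion molecule A (*F11r*) is an immunoglobulin-type adhesion protein, and ZO-1 (*Tjp1*) is the cytoplasmic scaffold that ties claudins and occludin to actin. Loss of these junctions is a textbook feature of EMT, and the transcription factors Snail and Zeb are known to bind E-box motifs in promoters of epithelial genes.

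The promoter sequences of the 4 genes that fell, and of the other genes among the 10 that hold an E-box, are shown because these transcription factors read promoter DNA. The sequences are from RefSeq (GRCm38.p6), in which 9 of the 10 genes have an entry. The most upstream start of each gene in the table was taken, and the 250 bases before it are printed 5′ to 3′ on the strand of the gene. Capitals mark the E-box CAGGTG, or CACCTG where it lies on the other strand.
*Cldn7*, chr11:69964529-69964778, plus strand: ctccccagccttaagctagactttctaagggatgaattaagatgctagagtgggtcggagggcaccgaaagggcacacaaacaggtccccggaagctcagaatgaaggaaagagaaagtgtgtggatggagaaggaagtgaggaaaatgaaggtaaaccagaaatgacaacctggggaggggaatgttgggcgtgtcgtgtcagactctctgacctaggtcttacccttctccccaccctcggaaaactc
*Ocln*, chr13:100552719-100552968, minus strand: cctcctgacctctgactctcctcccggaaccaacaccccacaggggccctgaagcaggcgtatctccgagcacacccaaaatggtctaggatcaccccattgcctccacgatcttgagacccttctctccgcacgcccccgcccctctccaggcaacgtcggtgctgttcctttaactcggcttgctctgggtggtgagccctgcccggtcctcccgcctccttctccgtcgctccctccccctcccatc
*Marveld2*, chr13:100616972-100617221, minus strand: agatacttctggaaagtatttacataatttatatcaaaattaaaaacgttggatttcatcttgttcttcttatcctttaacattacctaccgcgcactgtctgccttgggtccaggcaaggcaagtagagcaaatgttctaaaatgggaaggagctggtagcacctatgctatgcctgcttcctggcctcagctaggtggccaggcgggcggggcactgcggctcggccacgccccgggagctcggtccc
*Lsr*, chr7:30973470-30973719, minus strand: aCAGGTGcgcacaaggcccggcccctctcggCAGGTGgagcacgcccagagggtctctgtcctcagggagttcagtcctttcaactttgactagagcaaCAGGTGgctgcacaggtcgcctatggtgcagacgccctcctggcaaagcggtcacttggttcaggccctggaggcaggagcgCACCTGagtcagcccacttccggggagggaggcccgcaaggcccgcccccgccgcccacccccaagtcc
*Cldn4*, chr5:134946935-134947184, minus strand: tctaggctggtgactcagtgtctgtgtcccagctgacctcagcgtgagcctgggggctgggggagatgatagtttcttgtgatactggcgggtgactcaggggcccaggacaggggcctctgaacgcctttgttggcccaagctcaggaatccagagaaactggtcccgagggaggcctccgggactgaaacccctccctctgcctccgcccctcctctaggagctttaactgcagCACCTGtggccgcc
*F11r*, chr1:171437311-171437560, plus strand: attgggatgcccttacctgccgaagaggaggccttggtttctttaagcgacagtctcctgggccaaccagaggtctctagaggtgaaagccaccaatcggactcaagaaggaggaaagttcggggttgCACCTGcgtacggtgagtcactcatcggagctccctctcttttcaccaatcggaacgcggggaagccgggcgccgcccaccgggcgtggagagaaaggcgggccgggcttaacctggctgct

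The E-box was found before 3 of these 9 genes and before 17.1% of 27025 promoters of the same length. *Lsr* held 4 copies, whose first bases lie 249, 219, 151 and 69 bases before the start. *Cldn4* held 1 copy, 14 bases before the start, and *F11r* held 1 copy, 122 bases before it. Of these 3 genes *Lsr* fell, while *Cldn4* and *F11r* did not pass the test. The GC box GGGCGG, searched on both strands, was found before 8 of the 9 genes and before 33.0% of all promoters, with *Cldn7* as the gene without it. The Grainyhead motif AACNGGTT, also searched on both strands, was found before none of the 9 genes and before 1.74% of all promoters. No match of one motif overlapped a match of another before these genes, and a match does not show binding.

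Of the 10 genes, 4 fell in long-term EMT cells, namely *Cldn7*, *Ocln*, *Lsr* and *Marveld2*, and none rose with limma. At an unadjusted p under 0.05 and the same fold, 7 passed with limma and 7 with the t test, all of them lower. With that t test 688 of all 35556 probe sets were lower and 638 higher, and the number for unadjusted limma is not given here. At the adjusted p of limma 0.928% of probe sets fell over the whole array. The median log2 fold change of the 10 genes was -1.81, against 0.02 over all probe sets. For 7 of the 10 genes all 3 long-term EMT arrays lay below all 3 control arrays, which was so for 8.68% of probe sets. The other 3 of these 7 were *Cldn1*, *Cldn4* and *Marveld3*, which did not pass, and the groups overlapped for *Cldn3*, *F11r* and *Tjp1*. The genes were picked with earlier results of these arrays known, so the counts describe them and do not test them as a set. In such cultures a lower value can mean fewer cells with the RNA or less RNA per cell, which these arrays cannot tell apart.

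**Figure D1:**
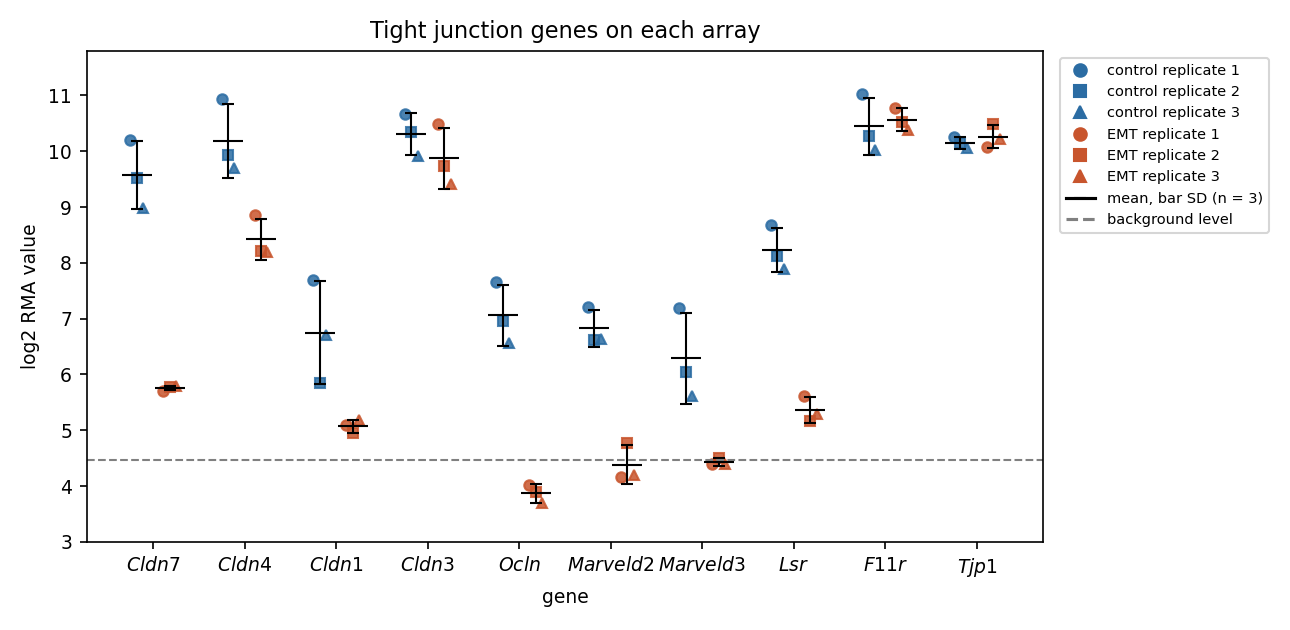
Log2 RMA values of the 10 genes on each array. Control cells are blue and long-term EMT cells are orange, marker shapes give the replicate, and black bars are the mean and SD of 3 arrays. A dashed line marks background at 4.48. *Ocln* ends below the line on all 3 long-term EMT arrays, while *Cldn3*, *F11r* and *Tjp1* overlap between groups.

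Among the claudins, *Cldn7* showed the deepest fall by value. *Cldn7* is a claudin of the lateral membrane that also binds EpCAM. Its values were 10.2, 9.52 and 8.98 in control cells and 5.71, 5.77 and 5.79 in long-term EMT cells. The lowest control array thus lay 3.19 above the highest long-term EMT array. Fitted with limma, this was a log2 fold change of -3.81 (95% CI -4.51 to -3.11, SE 0.29, adjusted p = 0.00367), which is 14.0-fold lower. *Cldn7* still lay above the background level on all 3 long-term EMT arrays, with an SD of 0.04 against 0.61 in control cells.

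*Cldn4*, a sealing claudin of simple epithelia, had values of 10.94, 9.93 and 9.69 in control cells and of 8.85, 8.22 and 8.2 in long-term EMT cells. The groups did not overlap, but control replicate 1 stood well above the other control arrays. The log2 fold change of -1.76 (95% CI -2.62 to -0.91, SE 0.35) did not pass, with an adjusted p of 0.0727. Without control replicate 1 it was -1.39 and passed (adjusted p = 0.0381). *Cldn4* kept well above the background level in both groups.

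*Cldn1*, the claudin of the epidermal barrier, was the most uneven of the claudins in control cells, at 7.69, 5.84 and 6.71. On the long-term EMT arrays it was even, at 5.09, 4.95 and 5.18. The groups did not overlap, with a gap of 0.66 between the lowest control and the highest long-term EMT array. The log2 fold change was -1.67 (95% CI -2.72 to -0.63, SE 0.43, adjusted p = 0.144), and it passed in none of the 6 fits that left out 1 array.

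*Cldn3*, a close relative of *Cldn4* and a receptor of the same bacterial enterotoxin, overlapped between the groups. It had 10.66, 10.35 and 9.92 in control cells and 10.48, 9.74 and 9.41 in long-term EMT cells. Its log2 fold change was -0.43 (95% CI -1.18 to 0.32, adjusted p = 0.652), so that the interval reaches from 2.27-fold lower to 1.25-fold higher. *Cldn3* thus lay far above the background level on all 6 arrays. The differences between the changes of the 4 claudins were not tested.

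The MARVEL genes were lower by value in long-term EMT cells for all 3 members, and 2 of them fell. *Ocln* had values of 7.65, 6.96 and 6.56 in control cells and of 4.02, 3.89 and 3.69 in long-term EMT cells. All 3 long-term EMT arrays were below the background level, so that its RNA was no longer told apart from that level. By the group means, the fall was at least 5.99-fold measured against the background level. Against the 99th percentile of the olfactory receptor probe sets it was at least 3.91-fold. These bounds hold no sampling error, and the 95% CI of the fit reaches down to 5.79-fold. The fitted log2 fold change was -3.19 (95% CI -3.85 to -2.53, SE 0.27, adjusted p = 0.00558).

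*Marveld2* had values of 7.21, 6.62 and 6.64 in control cells and of 4.17, 4.78 and 4.19 in long-term EMT cells. On 2 of these long-term EMT arrays it was at or below the background level, and on replicate 2 it was above. Its fitted log2 fold change was -2.44 (95% CI -3.00 to -1.89, SE 0.23, adjusted p = 0.00682), which rests in part on values at background. Against the 99th percentile of the olfactory receptor probe sets (5.09), which none of the long-term EMT arrays reached, *Marveld2* was at least 3.33-fold lower. *Marveld3* had 7.19, 6.05 and 5.62 in control cells and 4.4, 4.51 and 4.39 in long-term EMT cells. On long-term EMT replicates 1 and 3 it was below the background level. Here too the groups were apart, and control replicate 1 was the highest by more than 1 log2 unit. The fitted log2 fold change of -1.85 (95% CI -2.77 to -0.94, SE 0.38, adjusted p = 0.0762) did not pass. It passed without control replicate 1 (-1.40, adjusted p = 0.00999) and, just, without control replicate 3 (-2.19, adjusted p = 0.0490).

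*Lsr*, the partner of tricellulin at tricellular contacts, fell as well. It had 8.67, 8.13 and 7.89 in control cells and 5.62, 5.17 and 5.29 in long-term EMT cells. With limma its log2 fold change was -2.87 (95% CI -3.41 to -2.33, SE 0.22, adjusted p = 0.00389), which is 7.31-fold lower. *Lsr* remained above the background level on all 3 long-term EMT arrays. Both core genes of the tricellular junction in this list, *Lsr* and *Marveld2*, therefore fell.

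For the adhesion protein JAM-A and the scaffold ZO-1 no difference was found. *F11r* had values of 11.02, 10.28 and 10.03 in control cells and of 10.78, 10.53 and 10.38 in long-term EMT cells. Its log2 fold change was 0.12 (95% CI -0.51 to 0.75, adjusted p = 0.910). The long-term EMT values all lay within the range of the control values. *Tjp1* was the most even gene of the list in control cells, at 10.25, 10.14 and 10.05, and had 10.08, 10.48 and 10.21 in long-term EMT cells. Its log2 fold change was 0.11 (95% CI -0.19 to 0.41, adjusted p = 0.797), and its interval does not reach the 1.5-fold threshold on either side.

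**Figure D2:**
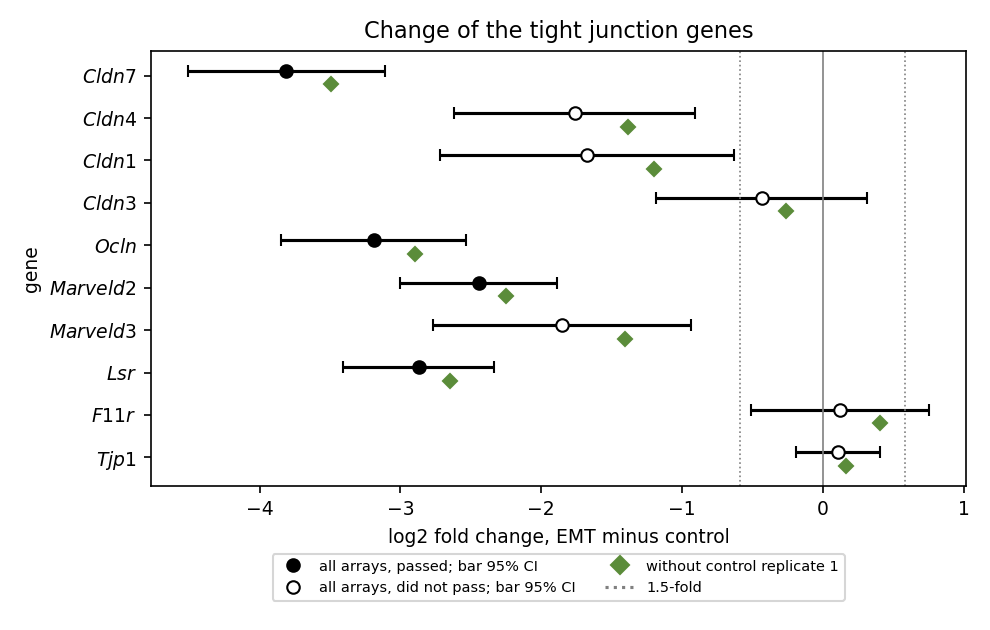
Log2 fold change of each gene between long-term EMT and control cells, with the 95% confidence interval from limma over 6 arrays (circles, filled where the gene passed) and the value without control replicate 1 (diamonds). The dotted lines are 1.5-fold, and the intervals of *Cldn7*, *Ocln*, *Lsr* and *Marveld2* all lie below -1.88.

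Control replicate 1 was the highest control array for all 10 genes, against 35.3% of all probe sets, and it stood apart across the array as well. Its values correlated at 0.987 and 0.984 with those of the other controls across probe sets, which had 0.995 between them. The scan tag in its label ends in another number than those of the other 5 arrays, and what the tag stands for is not given. The 10 genes lay between 0.16 (*Tjp1*) and 1.42 (*Cldn1*) above the mean of control replicates 2 and 3, with a median of 0.88, against -0.02 over all probe sets. *Marveld3* and *Cldn4*, at 1.36 and 1.13, had the next largest differences. These 3 genes are those that were apart between the groups without passing the test. Control replicate 3 was the lowest control array for 8 of the 10 genes, *Cldn1* and *Marveld2* being the others, and for 29.9% of probe sets. Without control replicate 1, the number of the 10 genes that fell was 6, the 4 above with *Cldn4* and *Marveld3*, where 1.36% of all probe sets fell. The median log2 fold change of the 10 genes was then -1.39.

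**Figure D3:**
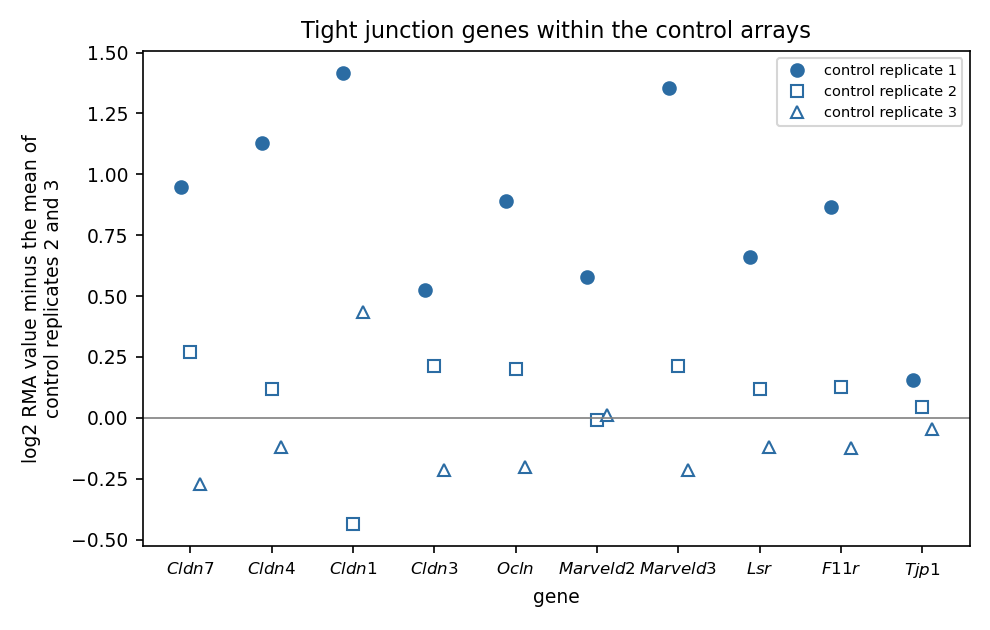
Values of the 10 genes on the 3 control arrays, as the difference in log2 RMA value from the mean of control replicates 2 and 3. Control replicate 1 (filled circles) is the highest array for each gene, by 0.16 for *Tjp1* and by 1.42 for *Cldn1*.

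Each of the 4 genes that fell also passed with any 1 of the 6 arrays left out. Their largest adjusted p in these fits was 0.0350 for *Cldn7* and *Lsr*, 0.0454 for *Ocln* and 0.0447 for *Marveld2*. The log2 fold change of *Cldn7* ranged from -4.10 to -3.49 over these fits, that of *Ocln* from -3.44 to -2.89, that of *Lsr* from -3.04 to -2.65 and that of *Marveld2* from -2.64 to -2.25. *Marveld3* passed in 2 and *Cldn4* in 1 of the 6 fits, and *Cldn1*, *Cldn3*, *F11r* and *Tjp1* passed in none.

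**Figure D4:**
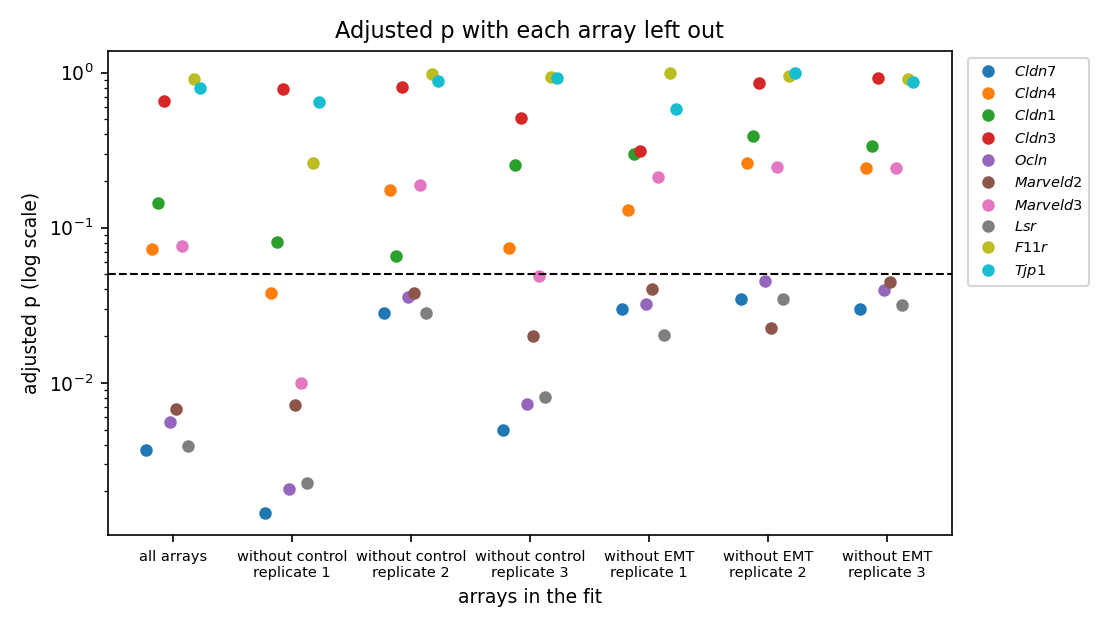
Adjusted p from limma (log axis) for each of the 10 genes with all arrays and with each array left out. The dashed line is 0.05, and *Cldn7*, *Ocln*, *Lsr* and *Marveld2* stay below it in every fit shown, between 0.00145 and 0.0454.

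Markers of the cell types were read beside these results. The counts of markers below stand beside 0.928% of all probe sets that fell and 0.993% that rose. Of 10 mammary epithelial markers 5 fell, namely E-cadherin (*Cdh1*, log2 fold change -5.09, with 2 of 3 long-term EMT arrays below the background level), *Epcam* (-3.85), the keratins *Krt7* (-2.11) and *Krt14* (-2.22) and the luminal transcription factor *Gata3* (-0.94). The keratins *Krt8* and *Krt18* had control means of 12.8 and 12.6 and log2 fold changes of -0.00 and 0.01, and did not pass. The remaining epithelial markers, *Krt19* (0.64), *Krt5* (0.14) and *Elf5* (-0.04), did not pass either. *Krt19* had 7.07, 5.15 and 5.01 on the long-term EMT arrays. No fibroblast marker of 7 passed with limma. Before adjustment, 2 of them had p under 0.05 and more than a 1.5-fold difference with limma, and 1 with the t test. The 2 with limma went in opposite directions, *Col1a1* higher (log2 fold change 0.62) and *Pdgfra* lower (-0.95). The mean level of the 7 fibroblast markers was 6.09, 5.67 and 5.43 in control replicates 1, 2 and 3 and between 5.37 and 5.52 in long-term EMT cells. Of these markers 5 were highest among controls in control replicate 1. *Dcn* (decorin) had 7.68, 5.98 and 4.5 on the control arrays, and *Lum* (lumican) was below the background level on all 6 arrays. The mean level of the 7 endothelial markers was 4.32 to 4.36 in control and 4.60 to 4.82 in long-term EMT cells, where *Cdh5* alone rose (2.49) and 4 others were below the background level on all 6 arrays. The mean of the 6 measured leukocyte markers was 4.40 to 4.52 in control and 4.40 to 4.42 in long-term EMT cells, and none of them passed with limma. *Lyz2* (lysozyme) alone had an unadjusted p under 0.05 with limma, at a fold of 1.49 and with all 3 long-term EMT arrays below the background level, so that none had both this p and a fold above 1.5 with limma or with the t test. Of the markers that passed, *Cdh1* and *Krt7* did so in all 6 fits that left out 1 array. *Epcam* and *Krt14* passed in 3 of them, and *Gata3* and *Cdh5* in 2. The part of other cell types in the values of the tight junction genes was not tested.

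For this list and those after it, the shares of all probe sets were 0.928% that fell and 0.993% that rose. None of the 19 other claudins passed with limma, and none did at an unadjusted p under 0.05 with limma or with the t test. Their median log2 fold change was 0.02, and 10 of the 19 lay above the background level on all 6 arrays. *Cldn6*, a claudin of embryonic epithelia, was among these, at 12.47, 12.42 and 12.49 in control and 12.59, 12.47 and 12.23 in long-term EMT cells. *Cldn12*, at control values of 10.17, 10.59 and 10.75, had a log2 fold change of 0.35 (95% CI -0.05 to 0.75), and *Cldn9* had one of 0.21 (95% CI -0.06 to 0.48). These 3 genes are named for their high values, after these had been seen. *Cldn23*, above the background level on all 6 arrays, had a log2 fold change of 0.68 (adjusted p = 0.430). *Cldn2*, a pore-forming claudin, was above that level in control replicate 1 alone, at 5.17.

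Of 10 other membrane proteins of tight junctions with a probe set of their own, of 11 listed, 2 fell and 1 rose, where 0.993% of all probe sets rose. *Epcam*, which stabilizes claudins, fell by 3.85 (SE 0.40, adjusted p = 0.00922). *Crb3*, the apical polarity protein Crumbs 3, fell by a fitted 1.44 (SE 0.25, adjusted p = 0.0469), with 2 of 3 long-term EMT arrays below the background level. *Igsf5*, the junctional adhesion molecule JAM4, rose by 0.90 (SE 0.14, adjusted p = 0.0354), from 5.25, 4.84 and 4.95 to 6.05, 5.99 and 5.71. Each of these 3 genes was apart between the groups. *Ildr1*, a relative of *Lsr* at tricellular contacts, had a log2 fold change of -0.99 (adjusted p = 0.133) with groups that did not overlap and 1 long-term EMT array below the background level. The median of the list was 0.01. Without control replicate 1, 3 genes of the list fell, *Ildr1* among them (-0.70, adjusted p = 0.0252), and 2 rose. In that fit 482 of all 35556 probe sets fell and 472 rose.

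Among 17 measured plaque and scaffold proteins of 20 listed, 1 fell. This was *Patj*, a PDZ protein of the Crumbs complex, with values of 8.09, 7.89 and 7.58 in control and 6.48, 6.65 and 6.63 in long-term EMT cells (log2 fold change -1.27, SE 0.14, adjusted p = 0.0115). *Magi3* and *Mpp5* (Pals1, the partner of Patj) had adjusted p of 0.0163 and 0.0371 but folds under 1.5, with log2 fold changes of -0.57 and 0.48. Cingulin (*Cgn*) had a log2 fold change of -0.51 (adjusted p = 0.121), while that of its relative paracingulin (*Cgnl1*) was 0.07. All 17 genes lay above the background level on all 6 arrays, and their median was 0.07. Of 9 measured genes of the Par polarity complex of 10 listed, *Prkcz*, an atypical protein kinase C, fell by 0.99 (SE 0.16, adjusted p = 0.0383). Its second probe set did not pass (-0.42, adjusted p = 0.433). *Pard3* and *Prkci* had log2 fold changes of -0.09 and -0.04.

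Of 18 transcription factors known to act on epithelial junction genes, 1 fell and 2 rose. *Grhl2*, a Grainyhead factor known to activate the genes of claudin 4 and E-cadherin, fell by 3.15 (SE 0.21, adjusted p = 0.00241), from 8.57, 8.21 and 7.76 to 5.15, 5.05 and 4.9. The repressor genes *Zeb2* and *Zeb1* rose by 1.34 (SE 0.14) and 0.74 (SE 0.12). *Ovol2*, a repressor of *Zeb1*, had a log2 fold change of -1.82 (SE 0.33, adjusted p = 0.0548) and did not pass. *Klf4*, *Elf3* and *Ehf* did not pass either, and control replicate 1 was their highest control array. *Ehf* had 9.28, 6.43 and 4.55 on the control arrays and 3.96, 4.03 and 4.04 on the long-term EMT arrays, all 3 of the latter below the background level (adjusted p = 0.349). The median of the list was -0.35. Without control replicate 1, 3 genes of the list fell and 2 rose, where 482 of all 35556 probe sets fell and 472 rose. In that fit *Ovol2* (-1.45, adjusted p = 0.0192) and *Klf4* (-1.38, adjusted p = 0.0327) passed, while *Elf3* and *Ehf* did not. Of 9 measured genes of the matriptase network, a set of membrane serine proteases and their inhibitors that act on epithelial surface proteins, 3 fell and 6 did not pass, with a median of -0.12. Matriptase (*St14*) fell by 3.97 (SE 0.25), *Spint2*, its inhibitor, by 1.91 (SE 0.29) and *Prss8* (prostasin) by 1.30 (SE 0.19).

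Over the 6 lists around the 10 genes, 11 of 82 measured genes passed, 8 lower and 3 higher. Of all probe sets 0.928% fell and 0.993% rose. The number of calls changed with the array left out, as it did over the whole array. Each such fit also has 1 array fewer in a group, and the cause of the changed counts was not tested. The count was 3 without long-term EMT replicate 1 and 2 each without long-term EMT replicates 2 and 3 and without control replicate 2, against 8 without control replicate 3 and 15 without control replicate 1. Over all probe sets it was 683 with all arrays. It was 312, 205 and 248 without long-term EMT replicates 1, 2 and 3. Without control replicates 1, 2 and 3 it was 954, 224 and 557. *Grhl2* and *St14* passed in all 6 fits, *Epcam* in 3, *Patj*, *Zeb1*, *Zeb2* and *Spint2* in 2, and *Igsf5*, *Crb3*, *Prkcz* and *Prss8* in 1. For those that passed in 2, the log2 fold changes over the 6 fits kept their sign. They were -1.40 to -1.15 for *Patj*, 0.65 to 0.86 for *Zeb1*, 1.20 to 1.47 for *Zeb2* and -2.19 to -1.62 for *Spint2*.

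**Figure D5:**
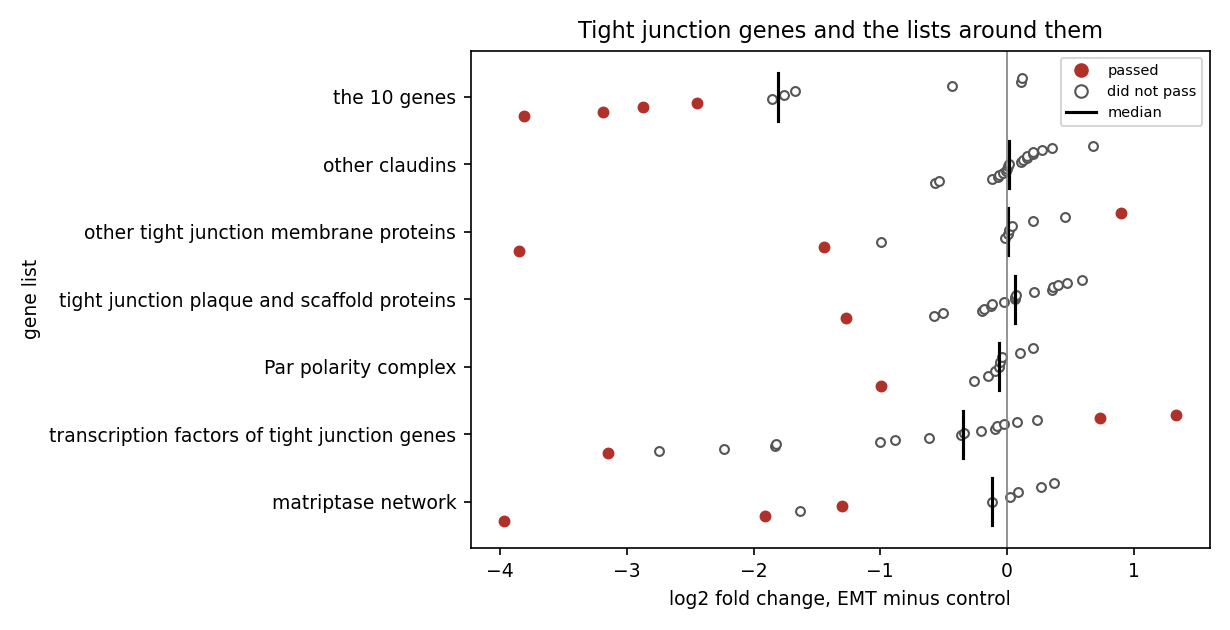
Log2 fold change, long-term EMT minus control, of every measured gene in the list of 10 tight junction genes and in the 6 lists around it. Filled points passed the test, open points did not, and vertical bars are medians, at -1.81 for the 10 genes and between -0.35 and 0.07 for the other lists.

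Outside the 10, the genes whose profile over the 6 arrays was nearest to that of a tight junction gene were found by the root mean square difference of the log2 values, each gene centred on its own mean. For *Ocln* the nearest were *Grhl2* (0.11), *Ap1m2* (0.15), *Tmem184a* (0.17), *Galnt3* (0.19) and *Il17re* (0.21). *Ap1m2* encodes a subunit of the epithelial clathrin adaptor complex. For *Cldn7* they were *St14* (0.17), *Ppl* (0.18), *Ap1m2* (0.22), *Kdf1* (0.23) and *Nipal2* (0.24), of which *Ppl* encodes periplakin of the desmosome-linked cytoskeleton. For *Marveld2* they were *Slc25a48* (0.19), *C1rl* (0.22), *Pakap* (0.24), *Fgfbp1* (0.25) and *Ahr* (0.25). All of these genes fell, which was largely fixed by choosing them for profiles near those of genes that fell. The points share the difference between the groups and the high control replicate 1. The nearest genes of *Tjp1*, namely *Lypd9*, *Mmel1*, *Tnnt3*, *Col11a2* and *Nos3*, lay within 0.04 and did not pass, which says only that they were as even over the arrays.

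By position, *Ocln* and *Marveld2* are next to each other among the protein-coding genes of chromosome 13 in RefSeq, and both fell. *Rad17*, on the far side of *Marveld2*, had a log2 fold change of 0.21 (adjusted p = 0.610). *Cldn3* and *Cldn4* are neighbors on chromosome 5, where neither passed, with log2 fold changes of -0.43 and -1.76. The genes on either side of *Cldn7* on chromosome 11, *Slc2a4* and *Elp5*, had log2 fold changes of 0.20 and 0.08. Those on either side of *Lsr* on chromosome 7, *Usf2* and *Fam187b*, had -0.06 and -0.03. *P3h2*, next to *Cldn1* on chromosome 16, fell by 2.11 (adjusted p = 0.0178), while *Cldn16* on its other side had -0.06 and lay below the background level.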

How the data were processed

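Total RNA, 150 ng per sample, was labelled and hybridized to Affymetrix MoGene-1_1-st-v1 arrays, 1 per sample, 3 control and 3 long-term EMT. The deposited values are log2 intensities that the authors computed by RMA (background correction, quantile normalization and summary per probe set) with Expression Console, whose version is not given in the sources used here. The values have 2 decimals and were used as deposited. RMA sets the arrays to 1 distribution, so that a change shared by all genes cannot be seen, and it compresses changes near background. All 35556 probe sets were fitted with limma 3.58.1 in R 4.3.3 (lmFit, eBayes), with Benjamini-Hochberg adjustment over all of them. Of these, 21218 have 1 gene symbol, and where a gene had more than 1 of these, its probe set of highest mean over the 6 arrays was used. Each of the 10 genes has 1. The fit was tested on simulated data.

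The genes, lists and tests were chosen with earlier results of these arrays known. Named are the 10 genes, for each list at most 4 of the genes that passed, taken by size of change, the 5 genes with the nearest profile to each of *Ocln*, *Cldn7*, *Marveld2* and *Tjp1*, and others where the text says so or as neighbors, cell markers or examples, which were chosen after their values were seen. A bound on a fold used, per array, the higher of the value and the background level, and holds no sampling error. Protein sequences were not used here, so that the identity of the claudins was not computed. Alternatives were the t test that the study's methods name, a trended and robust prior, other fold thresholds, a replicate block, other scalings, a filter on dim probe sets, other background percentiles, another promoter window and leaving out each array.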

Additional observations from a re-analysis of the deposited data

How the results depend on the processing

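With the t test of the study's methods at an unadjusted p under 0.05 and a fold above 1.5, 7 of the 10 genes and 1326 probe sets passed, and after Benjamini-Hochberg adjustment 0 of the 10 and 69 probe sets did, against 4 and 683 with limma. The cause was not tested. With a fold above 2 the 4 genes still passed, and 419 probe sets. Leaving out 1 array gave 4 to 6 of the 10 genes, 205 to 954 probe sets and 2 to 15 genes of the 6 lists around them. With the 99th percentile as the background level (5.09), the bound for *Ocln* was 1.97 on the log2 scale in place of 2.58, and *Marveld2* and *Marveld3* had bounds too. Signs turned for *Tjp1* without long-term EMT replicate 2 and for *F11r* without control replicate 3. Over the fits with 1 array left out *Tjp1* ranged from -0.0017 to 0.20 and *F11r* from -0.087 to 0.41, and neither passed in any setting. Over all probe sets, the deviations of arrays with the same replicate number correlated at 0.19, 0.02 and 0.25, so the numbers were not taken as pairs. The mean of the 10 genes did follow replicate order in both groups. It was 9.15, 8.38 and 8.21 in control and 6.92, 6.80 and 6.67 in long-term EMT cells. With the replicate block, 5 of the 10 genes passed, the 4 and *Cldn4* (adjusted p = 0.0215), and 534 probe sets. The SE of *Cldn4* was then 0.14 in place of 0.35, and that of *Lsr* 0.12 in place of 0.22. Of the 10 genes only *Marveld2* and *Tjp1* had a larger SE with the block. The same 4 genes passed with the trended prior, both other scalings, no fold threshold and the dim filter. For *Cldn7*, *Ocln*, *Lsr* and *Marveld2* the call held in 14 of 15 settings, the adjusted t test being the exception. The window of 100 bases left the E-box before 2 and the GC box before 6 of the 9 genes, against 6.94% and 25.2% of all promoters. The mean over all probe sets of a gene gave the same values, since each gene has 1. No group has the 4 samples that a test for single outlying arrays needs.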
